A study of Mus musculus with 23 samples.

Results

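Trp53, which encodes the transcription factor p53, and 9 genes that p53 is known to activate were followed through myoblast differentiation with and without a Runx1 knockout label. The 10 genes were taken by symbol (Trp53, Mdm2, Ccng1, Trp53inp1, Sesn2, Zmat3, Gdf15, Phlda3, Eda2r and Btg2) as readouts of p53 activity, leaving aside Cdkn1a and the Bcl2 family. They are 10 of the 32793 rows of the gene tables. All 10 passed the filter on low counts, which kept 14187 genes. The libraries came from C2C12, a mouse myoblast cell line that divides in rich serum and forms multinucleated myotubes once serum is withdrawn. Control cells (here WT) and Runx1KO cells were sampled while growing in 20% fetal bovine serum (day 0) and after 1, 3 or 6 days of differentiation in 2% horse serum. The titles give the last time as day 6 and the series text gives it as 5 days, and the titles were followed. WT on day 0 had 2 libraries and each of the other 7 groups had 3, for 23 libraries of poly(A) RNA. The labels do not say how the knockout was made, whether the Runx1KO cells were 1 clone, or whether replicates were separate cultures, so p-values measure the spread between these libraries, which may be technical.

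In resting cells p53 is held low by Mdm2, a ubiquitin ligase that marks it for destruction. DNA damage and other stresses release p53, which then switches on genes for cell cycle arrest, repair, altered metabolism and death, and also Mdm2 itself, closing a feedback loop. Because that control acts largely on the protein, the Trp53 mRNA and the mRNAs of its targets are separate readouts. p53 binds as a tetramer to a pair of adjacent half-sites, and the related proteins p63 and p73 recognise similar DNA.

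RefSeq promoter windows on GRCm38.p6 were matched for 8 of the 10 genes, Gdf15 with a pair of start sites. The 250 bases before the start were searched for an exact match to the 10-base p53 consensus half-site, which is its own reverse complement, so that a single pass reads both strands. Of 32851 promoter windows of this length, 7.13% held such a half-site, as did 3 of the 9 windows of these genes, those of Trp53, Mdm2 and Ccng1. A pair of half-sites with at most 1 mismatch in all and a spacer of at most 13 bases was present in 0.9% of windows and in that of Ccng1, where the pair abuts at bases -195 to -176 (chr11:40755462-40755481, minus strand). A match is a description and not a bound site, and a window without one shows only that these letters are absent from it. The windows of those 3 genes are given with the half-site in capitals, and that of Eda2r, the gene with the largest genotype difference, is given beside them although it has no exact half-site. Bases inside the annotation of any gene were left off, which shortens the Trp53 window where the neighbouring Wrap53 begins. It also removes bases next to the start site for Trp53, Ccng1 and Eda2r (25 bases in each of the last 2). Each sequence reads 5′ to 3′ on the strand of its gene. Positions count back from the start site of the full window, which for Trp53, Ccng1 and Eda2r lies beyond the last base printed.
Trp53, chr11:69580256-69580347, plus strand, half-site at -75 to -66: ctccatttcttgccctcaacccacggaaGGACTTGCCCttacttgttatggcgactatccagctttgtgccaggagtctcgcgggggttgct
Mdm2, chr10:117710759-117711008, minus strand, half-site at -186 to -177: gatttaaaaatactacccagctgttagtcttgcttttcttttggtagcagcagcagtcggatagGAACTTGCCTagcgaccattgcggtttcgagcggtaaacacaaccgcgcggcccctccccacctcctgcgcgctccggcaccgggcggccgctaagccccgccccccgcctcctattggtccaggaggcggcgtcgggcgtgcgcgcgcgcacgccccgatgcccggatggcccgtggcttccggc
Ccng1, chr11:40755312-40755536, minus strand, half-site at -185 to -176: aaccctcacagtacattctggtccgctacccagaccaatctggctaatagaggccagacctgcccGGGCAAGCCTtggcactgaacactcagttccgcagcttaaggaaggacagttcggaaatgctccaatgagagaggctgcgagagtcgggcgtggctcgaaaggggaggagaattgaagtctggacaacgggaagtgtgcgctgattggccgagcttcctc
Eda2r, chrX:97377235-97377459, minus strand, no half-site: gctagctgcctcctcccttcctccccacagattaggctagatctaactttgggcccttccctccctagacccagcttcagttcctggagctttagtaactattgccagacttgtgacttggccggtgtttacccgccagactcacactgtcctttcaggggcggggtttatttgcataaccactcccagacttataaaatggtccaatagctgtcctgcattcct

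Library totals ran from 22197606 to 23684077 estimated counts. Runx1, the targeted gene, was higher in KO-labelled libraries on every day, with 118, 119 and 122 CPM (estimated counts scaled to a common library total and corrected for library composition) against 84.0 and 83.9 CPM in WT on day 0 and a log2 fold change of 1.02 (SE 0.083) on day 6. Its mRNA level does not show a loss. The labels do not say how the knockout was made, and an edited gene can keep its mRNA, so this level may not check the label, and directions are given for the libraries as labelled. Replicate 2 of the day 1 group labelled KO stood apart, with chi-square values of 58.4 and 58.8 per degree of freedom against its replicates and 3.07 to 27.3 in the 20 other within-group pairs, so the day 1 counts are also given without it, as are, for the 10 genes, Trp63, Trib3, Gadd45a, Asns, Psat1 and Vldlr, the day 1 values that then crossed the threshold, changed sign or, where called, moved by over 1.5 times. The muscle markers Myod1, Myf5, Cdh15 and Des were present in all 23 libraries, Ptprc and Plin1 had at most 1 count, and Adgre1 and Adipoq were at 0. The summed level of 6 muscle markers was 2269 to 2382 CPM in KO-labelled libraries and 1547 to 1619 CPM in WT on day 0, 1957 to 2550 against 2000.1 to 2135 CPM on day 1, 3371 to 4167 against 2219 to 2332 CPM on day 3, and 4138 to 4913 against 1989 to 2325 CPM on day 6. Des had the highest level of the 6 in every library, at 985 to 2971 CPM, and weighs most in the sum. At an edgeR adjusted p under 0.05, 2 of the 6 were higher and 1 lower in KO-labelled libraries on day 0. The counts were 4 and 1 on days 1 and 6, and 5 and 0 on day 3. On days 0, 1, 3 and 6, 17.5%, 42.2%, 43.2% and 42.9% of all genes passed in either direction. The part of these marker differences in the results that follow was not tested, and in bulk RNA fewer cells of a type and less RNA per cell cannot be told apart.

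Per unit of transcript length, Trp53 was the most abundant of the 10 mRNAs in WT growth medium, at 332 ± 3.99 TPM (a length-corrected share of all transcripts, mean ± SD, n = 2). Phlda3 followed at 175 TPM, Ccng1 at 76.6 TPM, Mdm2 at 40.7 TPM and Gdf15 at 33.2 TPM. Sesn2 (12.2 TPM) and Btg2 (11.5 ± 2.70 TPM) did not differ beyond their spread, and Zmat3 (8.48 TPM), Eda2r (6.09 TPM) and Trp53inp1 (2.38 TPM) were lowest. By day 6 the order had changed in both genotypes. In WT, Phlda3 stood at 279 ± 10.9 TPM and Trp53 at 168 ± 6.95 TPM (SD, n = 3). In KO-labelled libraries Phlda3 led at 242 ± 5.43 TPM, ahead of Trp53 at 137 ± 3.90 TPM (SD, n = 3). Eda2r had reached 40.2 ± 2.40 TPM there, against 14.9 ± 3.84 TPM in WT, beside Mdm2 at 40.4 ± 3.06 TPM, and Trp53inp1 (5.52 ± 0.474 TPM) and Zmat3 (4.72 ± 0.845 TPM) were lowest and did not differ beyond their spread.

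**Figure D1:**
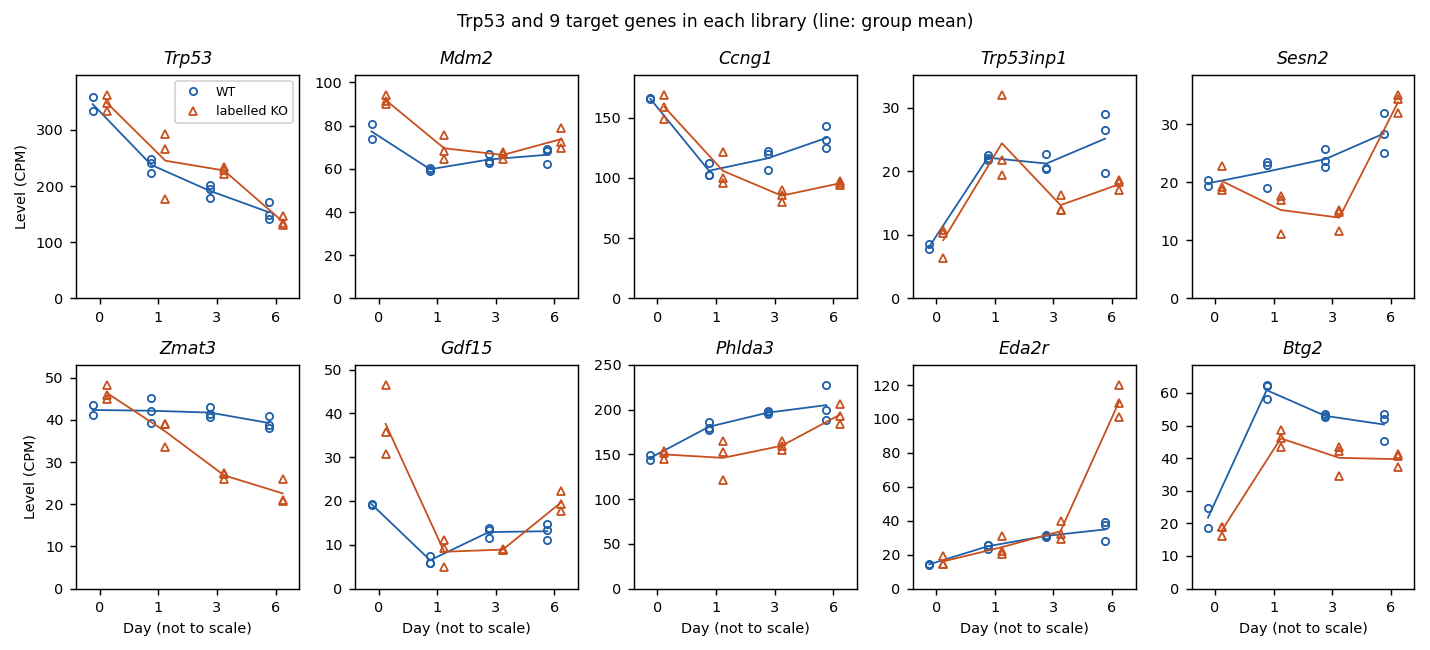
Level of each of the 10 genes in CPM (y axis, from 0) in every library by day (x axis, not to scale), with circles for WT, triangles for KO-labelled libraries and lines through group means. Trp53 declines from day 0 to day 6 in both genotypes, and Eda2r on day 6 separates the KO-labelled libraries (101 to 120.0 CPM) from WT (28.1 to 39.1 CPM).

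The first question was how these genes moved as cells left growth medium. Trp53, Mdm2, Ccng1 and Gdf15 fell in all 6 comparisons of a later day with day 0, 3 in each genotype, by edgeR's quasi-likelihood test at a Benjamini-Hochberg adjusted p under 0.05. Of these, the WT falls of Gdf15 on days 3 and 6 were lost in 5 and 6 of 14 alternative analyses, and that of Mdm2 on day 6 in 8 of 14. Trp53inp1, Eda2r and Btg2 rose in all 6. Phlda3 rose in 4 of the 6, Zmat3 fell in 3, all labelled KO, and Sesn2 fell on days 1 and 3 in KO-labelled libraries and rose on day 6 in both genotypes. In WT, 4 genes rose and 4 fell on day 1, where 27.1% of all genes rose and 27.6% fell. The counts in WT were 4 and 4 on day 3 (29.2% and 29.0% of all genes) and 5 and 4 on day 6 (32.6% and 31.1%). In KO-labelled libraries, 3 rose and 6 fell on day 1 (27.2% and 25.2% of all genes), 3 and 6 on day 3 (30.4% and 27.2%), and 5 and 5 on day 6 (36.6% and 33.5%). Without replicate 2 of the day 1 group labelled KO, 8 passed on day 1, 3 of them higher. The p53 targets therefore did not share a direction: known targets were among both the rising and the falling genes on every day. The 6 comparisons share their day 0 libraries within a genotype.

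**Figure D2:**
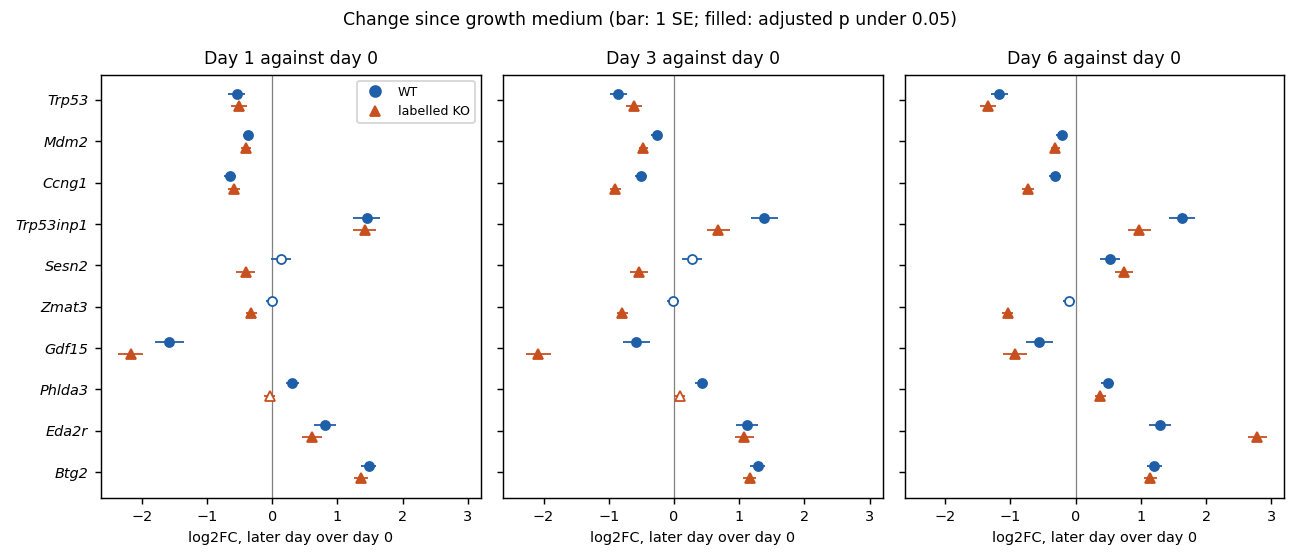
Log2 fold change of each gene (x axis) on day 1, 3 and 6 over day 0, with circles for WT, triangles for KO-labelled libraries, bars of 1 SE and filled symbols where the adjusted p is under 0.05. Mdm2, Ccng1 and Gdf15 lie left of 0 in every panel while Trp53inp1, Eda2r and Btg2 lie right of it.

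The second question was whether the genotypes differed on a given day. The genes that passed were all higher in KO-labelled libraries on day 0, all lower on day 3, and of both directions on days 1 and 6. On day 0, 2 of 10 genes differed, Mdm2 and Gdf15, both higher in KO-labelled libraries, where 17.5% of all genes passed in either direction and 7.36% were higher. Day 1 gave 4, Mdm2 higher and Sesn2, Phlda3 and Btg2 lower, against 42.2% of all genes (22.9% higher, 19.2% lower). By day 3 the count was 7, all lower, where 19.2% of all genes were lower and 43.2% passed in either direction. On day 6, 6 passed, Eda2r and Gdf15 higher and Ccng1, Trp53inp1, Zmat3 and Btg2 lower, against 42.9% of all genes (22.0% higher, 20.8% lower). The median log2 fold change of the 10 genes was 0.08, -0.01, -0.42 and -0.12 on days 0, 1, 3 and 6, and that of all genes tested was -0.00, 0.03, 0.04 and 0.00. Levels of the genotypes did not overlap for 3, 5, 8 and 8 of the 10 genes, where 51.6%, 47.1%, 60.4% and 51.7% of all genes did not overlap. With limma on the authors' TPM (log2(TPM + 1)), the day 3 count was 7, all lower. That scale, however, moved the day 3 differences of all genes by a median of -0.15, in the same direction. It also moved the share of higher genes among the genes called, over the whole series, from 55.5% to 34.3%. Without replicate 2 of the day 1 group labelled KO, 5 genes passed on day 1, of which Trp53, Mdm2 and Gdf15 were higher and Sesn2 and Btg2 lower.

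**Figure D3:**
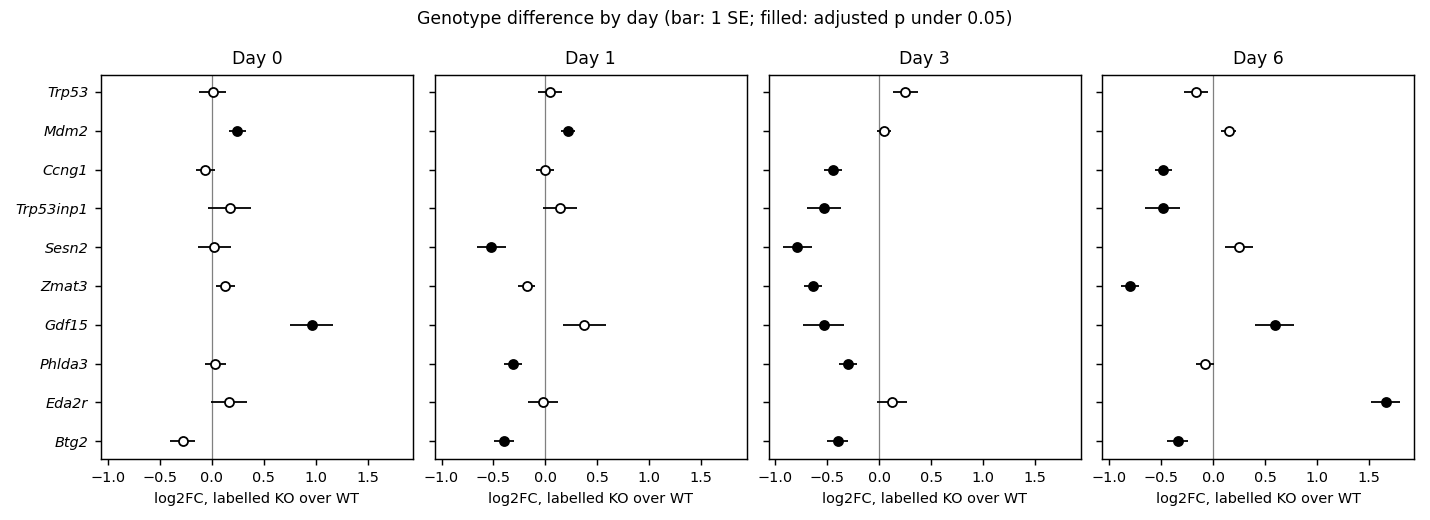
Log2 fold change of each gene between KO-labelled libraries and WT (x axis) on days 0, 1, 3 and 6, with bars of 1 SE and filled points where the adjusted p is under 0.05. The 7 filled points on day 3 all lie left of 0, and Eda2r on day 6 (1.66) lies farthest right.

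Trp53 itself (chr11:69580348-69591873) fell with differentiation and differed little between genotypes. In growth medium it stood at 334 and 358 CPM in WT and at 335, 348 and 362 CPM in KO-labelled libraries. On day 1 it was 249, 222 and 241 CPM in WT and 293, 177 and 265 CPM in KO-labelled libraries. Both genotypes lay below their own day 0 range, and the spread among the day 1 KO-labelled libraries was the widest of any group, with replicate 2 lowest. On day 3 Trp53 was 201, 194 and 179 CPM in WT and 221, 228 and 234 CPM in KO-labelled libraries. On day 6 it was 149, 171 and 141 CPM in WT and 129.9, 135 and 146 CPM in KO-labelled libraries. The genotypes separated on day 3 only, with the KO-labelled libraries above WT. The fall from day 0 to day 6 was 2.25-fold in WT (log2 fold change -1.17, SE 0.13, edgeR adjusted p = 4.34e-08) and 2.54-fold in KO-labelled libraries (-1.35, SE 0.12, adjusted p = 7.14e-10). No genotype difference in Trp53 passed by edgeR over all libraries: on day 0 the log2 fold change was 0.01 (95% interval -0.25 to 0.27), on day 3 it was 0.25 (0.02 to 0.48, adjusted p = 0.0905) and on day 6 it was -0.17 (-0.40 to 0.07). Without replicate 2 the day 1 value went from 0.04 to 0.26 (edgeR adjusted p = 0.0107), and the fall of Trp53 from day 0 to day 1 in KO-labelled libraries from -0.51 to -0.30 (adjusted p = 0.00225). When only the day 3 libraries were fitted, Trp53 passed on that day, at 0.22 (adjusted p = 0.00544), and with log2(TPM + 1) it passed on day 6 in the other direction, at -0.29 (limma adjusted p = 0.022).

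Of the genes that act on p53 itself, Mdm2, its ubiquitin ligase (chr10:117688875-117710758), was slightly higher in KO-labelled libraries on days 0 and 1. Mdm2 levels were 80.8 and 73.9 CPM in WT and 90.2, 94.3 and 91.3 CPM in KO-labelled libraries on day 0. They were 60.6, 59.2 and 59.6 CPM against 64.6, 75.8 and 68.2 CPM on day 1. The groups did not overlap on either day. On day 3 Mdm2 stood at 63.4, 62.5 and 67.0 CPM in WT and 67.9, 64.7 and 66.7 CPM in KO-labelled libraries, which overlap. On day 6 it stood at 69.2, 62.2 and 68.2 CPM against 72.6, 79.1 and 69.8 CPM, without overlap. The day 6 log2 fold change of 0.15 did not pass (edgeR adjusted p = 0.0927). The genotype difference was 1.19-fold on day 0 (log2 fold change 0.25, SE 0.079, edgeR adjusted p = 0.0311) and 1.16-fold on day 1 (0.22, SE 0.071, adjusted p = 0.0164). Both calls were fragile: the first was lost in 8 of 14 alternative analyses, among them the omission of either WT library (adjusted p = 0.0626 and 0.293), and the second in 6 of 15. Mdm2 fell most by day 3 in KO-labelled libraries (-0.47, SE 0.070) and by day 1 in WT (-0.37, SE 0.078). The falls of Mdm2 depended on scale: with log2(TPM + 1) none of the 3 WT falls passed, at -0.23, -0.09 and -0.03 on days 1, 3 and 6 (limma adjusted p = 0.0689, 0.478 and 0.795), nor did the day 6 fall in KO-labelled libraries (-0.32 by edgeR, -0.20 and adjusted p = 0.0602 by limma). Without replicate 1 of WT day 0, neither day 3 (-0.21, edgeR adjusted p = 0.0946) nor day 6 (-0.16, adjusted p = 0.19) passed. The day 6 call was also lost without replicate 2 of WT day 6 (-0.12, edgeR adjusted p = 0.239).

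Ccng1 (chr11:40748552-40755309), which encodes cyclin G1, a partner of a phosphatase that acts on Mdm2, fell on leaving growth medium and was lower in KO-labelled libraries than in WT on days 3 and 6. Its levels on day 0 were 165 and 166 CPM in WT and 149, 159 and 169 CPM in KO-labelled libraries. On day 1 they were 113, 102 and 103 CPM against 100.4, 122 and 95.7 CPM. On these days the genotypes overlapped. Ccng1 then stood at 107, 122 and 120.3 CPM in WT and 86.3, 79.7 and 90.0 CPM in KO-labelled libraries on day 3, and at 132, 125 and 143 CPM against 93.8, 95.9 and 97.3 CPM on day 6. Every KO-labelled library was below every WT library on both of these days. Ccng1 was 1.36-fold lower on day 3 (log2 fold change -0.45, SE 0.085, edgeR adjusted p = 0.000172) and 1.39-fold lower on day 6 (-0.48, SE 0.085, adjusted p = 7.75e-05). In WT the log2 fold change from day 0 was -0.65 on day 1 and -0.32 on day 6, the latter not passing with log2(TPM + 1) (-0.13, adjusted p = 0.342) or without replicate 2 of day 6 (-0.22, adjusted p = 0.0773).

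Trp53inp1 (chr4:11156441-11174379) encodes a stress-induced nuclear protein that promotes phosphorylation of p53 and takes part in autophagy. On day 0 its level was 8.49 and 7.73 CPM in WT and 10.8, 10.3 and 6.39 CPM in KO-labelled libraries. On day 1 it had risen to 22.6, 21.7 and 22.1 CPM in WT and 19.4, 32.0 and 21.8 CPM in KO-labelled libraries, with the genotypes overlapping. Trp53inp1 then stayed high in WT, at 20.6, 20.4 and 22.6 CPM on day 3 and 26.6, 19.8 and 29.1 CPM on day 6. In the KO-labelled libraries it was 13.9, 16.2 and 13.9 CPM on day 3 and 18.3, 18.6 and 17.0 CPM on day 6, below every WT library of the same day. Without replicate 2 of the day 1 group labelled KO, the day 1 genotype difference of Trp53inp1 went from 0.14 to -0.08, neither of which passed. The rise from day 0 to day 6 was 3.10-fold in WT and 1.96-fold in KO-labelled libraries. The genotype difference was -0.53 (log2) on day 3 (SE 0.168, edgeR adjusted p = 0.0133) and on day 6 the value was -0.49 (SE 0.165, adjusted p = 0.0202). Omitting replicate 3 of WT day 3 ended the first call (adjusted p = 0.0514). The second ended without replicate 3 of the day 6 group labelled KO (adjusted p = 0.069) and without WT day 6 replicate 1 or 3 (adjusted p = 0.0661 and 0.129).

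Among the growth-arrest genes, Btg2 (chr1:134074865-134079155), an antiproliferative cofactor of the mRNA deadenylation machinery, rose sharply in both genotypes and reached a lower level in KO-labelled libraries. On day 0 Btg2 was 24.8 and 18.7 CPM in WT and 18.7, 19.0 and 16.1 CPM in KO-labelled libraries, and these overlapped. On day 1 the levels were 62.2, 58.0 and 62.4 CPM in WT and 43.3, 48.6 and 46.3 CPM in KO-labelled libraries. By day 3 they were 53.6, 52.8 and 52.5 CPM against 42.1, 43.5 and 34.6 CPM, and by day 6 they were 45.3, 52.0 and 53.6 CPM against 40.7, 37.2 and 41.2 CPM. On each differentiation day every KO-labelled library lay below every WT library. The day 1 rise was 2.79-fold in WT (edgeR adjusted p = 3.02e-10) and 2.57-fold in KO-labelled libraries (adjusted p = 2.14e-10). By the edgeR test as reported, Btg2 was the only one of the 10 genes to pass between genotypes on all 3 differentiation days. Zmat3 passed on days 3 and 6, and on day 1 in 3 of 15 alternatives. The Btg2 difference was -0.40 on days 1 and 3 (edgeR adjusted p = 0.00196 and 0.00197) and -0.34 on day 6 (adjusted p = 0.00688). The day 0 value, -0.28, did not pass (adjusted p = 0.114), and rested on the spread of the 2 WT libraries: it was -0.47 without replicate 2 of WT (adjusted p = 0.0224) and -0.06 without replicate 1 (adjusted p = 0.89).

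Zmat3 (chr3:32334792-32365665), an RNA-binding zinc finger protein that acts in p53-dependent growth control, did not change detectably in WT and was below its day 0 level on every later day in KO-labelled libraries. Its WT levels were 41.2 and 43.5 CPM on day 0, 45.3, 39.3 and 42.0 CPM on day 1, 43.1, 41.5 and 40.7 CPM on day 3, and 38.0, 38.9 and 41.1 CPM on day 6. In the KO-labelled libraries Zmat3 went from 45.1, 46.0 and 48.3 CPM on day 0 to 39.1, 33.6 and 39.1 CPM on day 1, 27.1, 27.5 and 26.1 CPM on day 3 and 25.9, 21.0 and 20.8 CPM on day 6. The KO-labelled libraries were thus above both WT libraries on day 0 and below all of them afterwards, on day 1 only by 39.1 against 39.3 CPM. The day 1 genotype difference was -0.18 and did not pass (edgeR adjusted p = 0.0881). It was -0.09 without replicate 2 of the day 1 group labelled KO (edgeR adjusted p = 0.427). It passed with library size only and a mean count filter of 50 (edgeR adjusted p = 0.0397 and 0.0277) and with DESeq2 (adjusted p = 0.0444). In WT the log2 fold change from day 0 was -0.01 on day 1 (95% interval -0.19 to 0.18) and -0.11 on day 6 (-0.29 to 0.07). In the KO-labelled libraries it was -0.32, -0.79 and -1.04 on days 1, 3 and 6 (edgeR adjusted p = 0.0027, 3.42e-08 and 1.84e-10), although with log2(TPM + 1) the day 1 value was -0.15 and did not pass (adjusted p = 0.234). Zmat3 was 1.55-fold lower than WT on day 3 (-0.64, SE 0.085, adjusted p = 1.92e-06) and 1.74-fold lower on day 6 (-0.80, SE 0.086, adjusted p = 6.28e-08). Both of these genotype calls held in all 15 alternative analyses run.

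Sesn2 and Gdf15 answer to amino acid and endoplasmic reticulum stress as well as to p53. Sesn2 (chr4:132492804-132510456) encodes sestrin 2, which restrains the growth kinase complex mTORC1 and senses leucine. On day 0 it stood at 19.3 and 20.3 CPM in WT and 19.2, 18.6 and 22.8 CPM in KO-labelled libraries. Levels on day 1 were 23.5, 22.9 and 19.0 CPM against 17.6, 11.1 and 16.9 CPM, and on day 3 they were 25.8, 23.6 and 22.6 CPM against 14.8, 11.6 and 15.2 CPM. On both days every KO-labelled library was below every WT library. The order was reversed on day 6, at 31.9, 25.0 and 28.2 CPM in WT and 35.0, 32.0 and 34.3 CPM in KO-labelled libraries, again without overlap. Sesn2 was 1.43-fold lower in KO-labelled libraries on day 1 (log2 fold change -0.52, SE 0.140, edgeR adjusted p = 0.00444) and 1.73-fold lower on day 3 (-0.79, SE 0.141, adjusted p = 8.2e-05), and its day 6 value of 0.25 did not pass (adjusted p = 0.139). Without replicate 2 of the day 1 group labelled KO, the day 1 difference went to -0.31 (adjusted p = 0.0427), and the fall of Sesn2 from day 0 to day 1 in KO-labelled libraries went from -0.41 to -0.21 and did not pass (adjusted p = 0.157). That fall was lost in 6 of 15 alternatives in all, among them log2(TPM + 1) (-0.25, limma adjusted p = 0.148) and the omission of replicate 3 of the day 0 group labelled KO (-0.31, edgeR adjusted p = 0.105). The WT rise of Sesn2 on day 6 (0.52) was lost without replicate 1 of WT day 0 (0.47, edgeR adjusted p = 0.0511).

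Gdf15 (chr8:70629393-70632470) encodes a secreted cytokine of the transforming growth factor beta superfamily that is raised in stressed cells. It changed the sign of its genotype difference between days. In growth medium its level was 19.4 and 19.2 CPM in WT and 30.7, 35.7 and 46.5 CPM in KO-labelled libraries, all 3 of which were above WT. On day 1 it was 5.95, 5.94 and 7.52 CPM in WT and 11.1, 4.81 and 9.36 CPM in KO-labelled libraries, and replicate 2 was the only one of these below WT. On day 3 Gdf15 stood at 11.6, 13.8 and 13.3 CPM in WT and 8.96, 8.89 and 8.84 CPM in KO-labelled libraries, and on day 6 at 14.8, 13.3 and 11.2 CPM against 17.7, 19.3 and 22.2 CPM. The groups did not overlap on either day, with the KO-labelled libraries below WT on day 3 and above it on day 6. The difference was 1.95-fold higher on day 0 (log2 fold change 0.96, SE 0.206, edgeR adjusted p = 0.00167), 1.45-fold lower on day 3 (-0.53, SE 0.197, adjusted p = 0.0318) and 1.51-fold higher on day 6 (0.59, SE 0.187, adjusted p = 0.0131). The day 0 call held in every alternative run. The day 3 call was lost on omission of any of 5 libraries (adjusted p = 0.0663 to 0.0995), and the day 6 call on omission of replicate 3 of either genotype (adjusted p = 0.0647 labelled KO and 0.0568 WT). On day 1 the value was 0.37 (adjusted p = 0.158), and 0.68 without replicate 2 (adjusted p = 0.00227). The fall from day 0 to day 1 was 2.98-fold in WT and 4.49-fold in KO-labelled libraries. In WT the later falls of Gdf15 (-0.58 on day 3, -0.56 on day 6) were lost without either WT day 0 library (edgeR adjusted p = 0.0736 to 0.0788), without WT day 3 replicate 1 (day 3, 0.0681), without WT day 6 replicate 2 or 3 (day 6, 0.0602 and 0.0813) and with log2(TPM + 1) (0.0921 and 0.11).

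Phlda3 and Eda2r act at the membrane. Phlda3 (chr1:135766085-135769134), a pleckstrin homology domain protein that competes with Akt for membrane lipids, was above its day 0 level on days 1, 3 and 6 in WT (log2 fold change 0.31, 0.43 and 0.49) and on day 6 in KO-labelled libraries (0.38). Its level was 143 and 149 CPM in WT and 144, 151 and 154 CPM in KO-labelled libraries on day 0. On day 1 Phlda3 was 179, 186 and 178 CPM in WT and 165, 121 and 153 CPM in KO-labelled libraries, and on day 3 the values were 198, 195 and 197 CPM against 154, 159 and 165 CPM. The KO-labelled libraries lay below WT on both days, and on day 6 the groups overlapped at 199, 227 and 188 CPM in WT and 184, 193 and 206 CPM. The genotype difference was -0.31 on the log2 scale on day 1 (SE 0.087, edgeR adjusted p = 0.00638), which fell to -0.17 without replicate 2 and did not pass (adjusted p = 0.0574). On day 3 it was -0.30 (SE 0.087, adjusted p = 0.00711), a call kept in all 15 alternatives, and on day 6 it was -0.08 (95% interval -0.25 to 0.09). With log2(TPM + 1) the day 6 value was -0.20 and passed (adjusted p = 0.0123). In KO-labelled libraries the change from day 0 was -0.04 on day 1 (0.10 without replicate 2) and 0.09 on day 3, which did not pass with edgeR but did with log2(TPM + 1) (0.17, adjusted p = 0.0244). The WT rise on day 1 did not pass without replicate 1 of WT day 0 (0.27, edgeR adjusted p = 0.0828). The Phlda3 interaction was -0.34 on day 1 and -0.34 on day 3 (edgeR adjusted p = 0.155 and 0.107). It passed in 2 of 20 alternatives on day 1, DESeq2 and the omission of replicate 1 of the day 1 group labelled KO (-0.44, adjusted p = 0.0485), and in 5 of 20 on day 3, among them log2(TPM + 1) (-0.43, adjusted p = 0.00398).

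Eda2r (chrX:97333837-97377234) encodes a receptor of the tumour necrosis factor receptor family that binds ectodysplasin A2. It rose in both genotypes, and on day 6 rose far higher in KO-labelled libraries. On day 0 its level was 13.9 and 14.6 CPM in WT and 14.6, 14.3 and 19.1 CPM in KO-labelled libraries. On day 1 Eda2r was 23.4, 25.4 and 25.9 CPM against 20.5, 30.7 and 22.0 CPM, and on day 3 the values were 30.5, 31.7 and 30.9 CPM against 40.1, 29.4 and 31.9 CPM. The genotypes overlapped on all 3 of these days. On day 6 WT stood at 37.3, 28.1 and 39.1 CPM and the KO-labelled libraries at 101, 120.0 and 109.5 CPM, so that the lowest of these was above the highest WT library by more than the range of either group. The day 6 difference was 3.16-fold (log2 fold change 1.66, SE 0.140, edgeR adjusted p = 1.2e-09), the largest of the 10 genes, and ranked 1068 by size among 14187 genes tested. The rise from day 0 was 2.45-fold in WT (1.29, SE 0.171, adjusted p = 6.33e-07) and 6.90-fold in KO-labelled libraries (2.79, SE 0.149, adjusted p = 8.16e-14). Both calls and the day 6 difference held in every alternative run. On the same day Cd68, 1 of 3 leukocyte markers, was at 214 to 265 counts in KO-labelled libraries and 59 to 111 in WT, while Adgre1 was at 0 and Ptprc had at most 1 count, and the part of such cells in the result was not tested.

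The interaction contrast asked whether the change since day 0 differed between genotypes, as the change in KO-labelled libraries minus that in WT. On day 3, 3 of 10 genes passed, all negative, where 4.06% of all genes passed in that direction: Gdf15 at -1.50, Sesn2 at -0.81 and Zmat3 at -0.77. On day 6, Zmat3 at -0.93 and Ccng1 at -0.42 passed as negative (5.42% of all genes did) and Eda2r at 1.49 as positive (7.54% did). None of the 10 passed on day 1 by edgeR's quasi-likelihood test (3.95% of all genes did), where 3 had an unadjusted p under 0.05 and DESeq2 called 1, Phlda3 (-0.38, adjusted p = 0.0468). DESeq2 called 6 on day 3, adding Ccng1 (-0.44), Trp53inp1 (-0.76) and Phlda3 (-0.39). The 4.06% of all genes is edgeR's share and does not apply to that count. DESeq2 moved the day 3 interactions of all genes by a median of -0.05. Among all genes it called for that contrast, 51.1% were higher, against 62.1% by edgeR. The Trp53 interaction was 0.03, 0.24 and -0.18 on days 1, 3 and 6, with 95% intervals of -0.31 to 0.38, -0.10 to 0.59 and -0.52 to 0.17, none of which passed.

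Other genes of the pathway were counted from a list of 29 further p53 targets, of which 28 were tested (Perp had too few counts). Between genotypes, 9 of the 28 passed on day 0 (5 higher in KO-labelled libraries, 4 lower), 18 on day 1 (8 and 10), 16 on day 3 (7 and 9) and 17 on day 6 (7 and 10), where 17.5%, 42.2%, 43.2% and 42.9% of all genes passed. Their median log2 fold changes were 0.06, 0.01, -0.01 and -0.13, so the list as a whole had no shared direction on day 3, when the 7 of the 10 genes that passed were lower. The targets named here are the most changed on at least 1 day, and their values on the other days are given beside. Plk2, a stress-induced kinase, was higher on all 4 days (0.94, 0.84, 0.24 and 0.48). Ckap2, a mitotic spindle protein, was higher on days 1, 3 and 6 (1.07, 1.26 and 0.46) and stood at 0.11 on day 0. Tigar, which lowers glycolytic flux, passed on day 1 (1.01) and stood at 0.30, 0.33 and 0.31 on days 0, 3 and 6. Pidd1, a caspase-2 platform, passed on day 3 (0.47) and stood at 0.15, 0.40 and -0.14 on days 0, 1 and 6. Abhd4 was lower on all 4 days (-0.58, -0.85, -0.88 and -0.65), as were Sesn1, the sestrin 1 gene (-0.51, -0.38, -0.33 and -0.52), and Dram1, a lysosomal autophagy protein (-0.35, -0.80, -0.62 and -0.79). Gls2, a mitochondrial glutaminase, was lower on days 1, 3 and 6 (-0.59, -0.73 and -0.68), and so was Ephx1, an epoxide hydrolase (-0.77, -0.67 and -0.71). The day 0 values of Gls2 and Ephx1, -0.29 and -0.12, did not pass. On day 1, 17 targets passed without replicate 2 of the group labelled KO, 10 of them higher. On day 0 the count fell from 9 to 4 without either WT library.

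Gadd45a, a growth arrest gene induced by DNA damage and by stress signalling, showed the largest day 6 difference among these targets. On day 3 it was 49.2, 45.1 and 57.1 CPM in WT and 52.1, 44.3 and 46.8 CPM in KO-labelled libraries, which overlap. On day 6 Gadd45a was 103, 83.6 and 73.3 CPM in WT and 188, 236 and 246 CPM in KO-labelled libraries, a 2.57-fold difference (log2 fold change 1.36, SE 0.126, edgeR adjusted p = 5.96e-09). As for Eda2r, the genotypes separated between days 3 and 6. Gadd45a also differed on day 0 (0.73, edgeR adjusted p = 0.00355), a call lost without replicate 2 of WT (0.69, adjusted p = 0.0507).

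Regulators and partners of p53 were counted from a list of 21 genes, of which 18 were tested. The share of all genes that passed was 17.5%, 42.2%, 43.2% and 42.9% on days 0, 1, 3 and 6. The median log2 fold changes of the list between genotypes were 0.04, 0.10, 0.13 and 0.12. On day 0, 1 regulator passed, and days 1, 3 and 6 gave 9 (8 higher), 8 (7 higher) and 5 (3 higher). Day 1 gave 10, 8 of them higher, without replicate 2 of the day 1 group labelled KO. Hipk2, a kinase of p53, was higher on days 0, 1 and 3 (0.70, 0.54 and 0.49). The checkpoint kinases Chek1 (0.96 and 0.85), Atm (0.78 and 0.40) and Chek2 (0.68 and 0.92) were higher on days 1 and 3, and on day 6 they stood at -0.03, 0.31 and 0.15, which did not pass. Pml was higher on days 3 and 6 (0.45 and 0.51). Ppp1r13l, an inhibitor of p53, was lower on day 1 (-0.63) and higher on day 6 (0.41). Mdm4, the partner of Mdm2 that blocks p53, was lower on day 3 (-0.29, edgeR adjusted p = 0.04) and day 6 (-0.36, adjusted p = 0.012), and Wrap53, the neighbour of Trp53 on the opposite strand, passed on day 6 (-0.34). Cdkn2a, whose alternative product Arf inhibits Mdm2, had at most 1 count in any library, and Trp73 had at most 4.

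Trp63 (chr16:25683763-25892088), which encodes p63, was the regulator with the largest genotype difference. On day 0 it had 1 and 0 counts in WT and 4, 1 and 2 counts in KO-labelled libraries, too few for a fold. On day 1 Trp63 had 3, 3 and 2 counts in WT and 30, 17 and 21 counts in KO-labelled libraries. On day 3 its level was 0.261, 0.433 and 0.347 CPM in WT and 9.87, 8.13 and 7.18 CPM in KO-labelled libraries, and on day 6 the values were 0.688, 0.931 and 0.881 CPM against 22.8, 28.2 and 26.5 CPM. Every KO-labelled library was above every WT library on days 1, 3 and 6, and in both genotypes Trp63 was higher on days 3 and 6 than on day 0. The difference was 23.8-fold on day 3 (log2 fold change 4.57, SE 0.246, edgeR adjusted p = 9.19e-13) and 30.8-fold on day 6 (4.95, SE 0.208, adjusted p = 5.32e-15), from 6 to 10 and 16 to 21 counts in WT. On log2(TPM + 1), which understates changes of low genes, the Trp63 differences were 1.97 and 3.398, and on log2(TPM + 0.1) they were 3.32 and 4.44, all of which passed. Per transcript length, Trp63 stood at 16.6 ± 1.33 TPM and Trp53 at 137 ± 3.90 TPM in the day 6 KO-labelled libraries (SD, n = 3). Its isoforms, which differ in whether they activate or oppose p53 targets, were not resolved. Of the 2 epithelial markers, Cdh1 had 8, 17 and 19 counts in the day 6 KO-labelled libraries and at most 4 in any other library, and Epcam was at 0 in 22 of 23 libraries and had 8 counts in replicate 3 of that group. Their part in the Trp63 result was not tested.

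**Figure D4:**
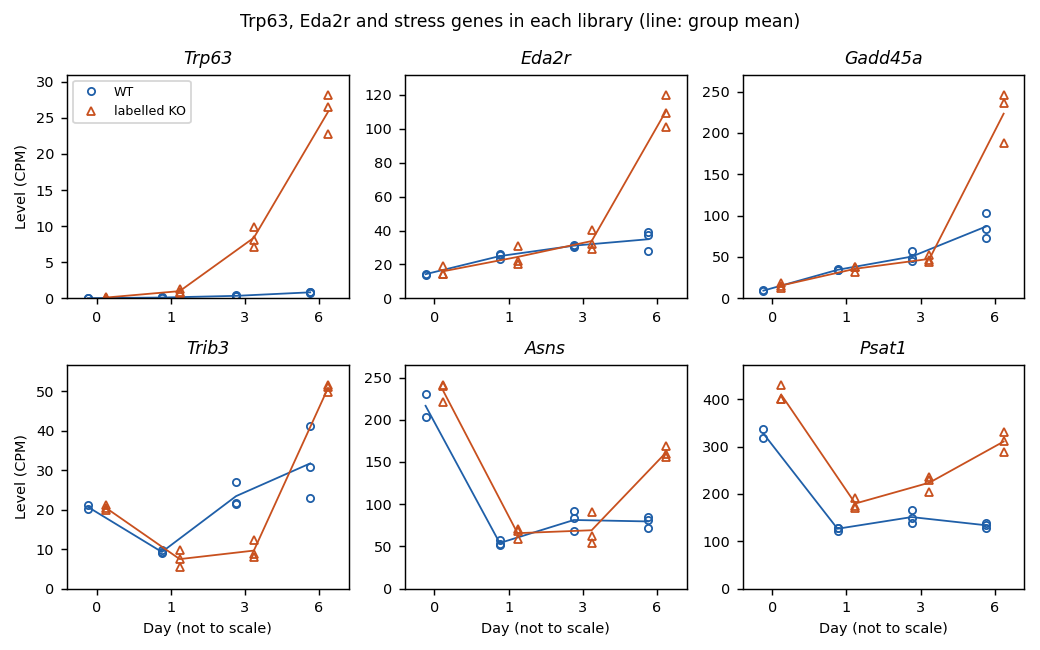
Level in CPM (y axis, from 0) by day (x axis, not to scale) of Trp63, Eda2r, Gadd45a and the amino acid stress genes Trib3, Asns and Psat1, with circles for WT, triangles for KO-labelled libraries and lines through group means. Trp63, Eda2r and Gadd45a are highest in the day 6 KO-labelled libraries, where Trp63 spans 22.8 to 28.2 CPM.

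Because Sesn2 and Gdf15 are also targets of the amino acid stress factor Atf4, a list of 10 stress genes was read beside them. Of these, 3 passed between genotypes on day 0 (2 higher, 1 lower), 3 on day 1 (1 and 2), 5 on day 3 (1 and 4) and 7 on day 6, all higher, where 17.5%, 42.2%, 43.2% and 42.9% of all genes passed. Without replicate 2 of the day 1 group labelled KO, 4 passed on day 1, of which 3 were higher. The median log2 fold change of the list was 0.07, 0.00, -0.33 and 0.49 on days 0, 1, 3 and 6. The values of Sesn2 were 0.03, -0.52, -0.79 and 0.25, and those of Gdf15 were 0.96, 0.37, -0.53 and 0.59. Trib3, a pseudokinase induced by Atf4, stood at 27.1, 21.4 and 21.8 CPM in WT and 12.3, 7.95 and 8.66 CPM in KO-labelled libraries on day 3 (-1.28, edgeR adjusted p = 5.41e-06). On day 6 Trib3 was 41.3, 30.9 and 23.1 CPM in WT and 49.9, 51.1 and 51.6 CPM in KO-labelled libraries, so the order of the genotypes differed between these days. Psat1, of serine synthesis, was higher on all 4 days (0.32, 0.51, 0.57 and 1.22), although the day 0 call was lost without replicate 1 of WT (0.28, edgeR adjusted p = 0.133). Asns, asparagine synthetase, was higher on day 6 (1.02) and stood at 0.11, 0.28 and -0.23 before. The day 1 value of Asns passed without replicate 2 of the group labelled KO (0.38, edgeR adjusted p = 0.0355). Its day 3 value passed without replicate 1 of the day 3 group labelled KO (-0.48, edgeR adjusted p = 0.00188), and on log2(TPM + 1) (-0.40, limma adjusted p = 0.0158). Atf3, a stress-induced transcription factor, was higher on days 0 and 6 (0.42 and 0.36), lower on day 3 (-0.48) and stood at 0.05 on day 1. Ddit4, an inhibitor of mTORC1, was lower on day 1 (-0.28) and stood at 0.07, -0.21 and 0.10 on the other days. Vldlr, a lipoprotein receptor, was lower on days 0, 1 and 3 (-1.16, -1.53 and -1.60), and its day 6 value of -0.51 did not pass. On day 0 Vldlr was 12.8 and 9.86 CPM in WT and 8.62, 5.32 and 1.20 CPM in KO-labelled libraries, a wide spread with replicate 3 lowest and no overlap. The day 0 difference of Vldlr was -0.70 without that replicate and -1.79 without replicate 1 of the same group, both of which passed. Its call was lost without WT replicate 1 (-0.96, edgeR adjusted p = 0.185) and when only the groups compared were fitted (-1.16, adjusted p = 0.0775). The day 6 value passed in that smaller fit (-0.52, edgeR adjusted p = 0.000824) and on log2(TPM + 1) (-0.59, limma adjusted p = 0.0160). With log2(TPM + 1), 9 stress genes passed on day 3, of which 1 was higher. That scale moved the day 3 differences of all genes by a median of -0.15, in the direction of the lower calls. Among all genes called, 34.3% were higher on it, against 55.5% by edgeR.

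Of 8 immediate early genes, whose mRNAs respond within minutes to handling and serum, 4, 6, 2 and 3 passed on days 0, 1, 3 and 6, of which 2, 1, 0 and 1 were higher, beside the same shares of all genes. Omitting replicate 2 of the day 1 group labelled KO left 4 on day 1, of which 1 was higher. Egr1, a transcription factor, was lower on days 0 and 1 (-0.89 and -0.34) and stood at -0.12 and 0.02 after. Fosb, an AP-1 subunit, was higher on day 0 (0.84), lower on day 1 (-0.57) and stood at -0.32 and -0.23 after. Dusp1, a MAP kinase phosphatase, was higher on days 0 and 1 (0.50 and 0.38) and lower on days 3 and 6 (-0.33 and -0.59). Ier3 stood at -0.06 on day 0 and was lower on days 1, 3 and 6 (-1.08, -1.20 and -0.37). Klf2 was lower on day 1 (-0.76) and stood at -0.39, -0.23 and -0.13 on the other days. Junb, another AP-1 subunit, was lower on day 1 (-0.43), higher on day 6 (0.46) and stood at -0.20 and -0.25 on days 0 and 3.

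**Figure D5:**
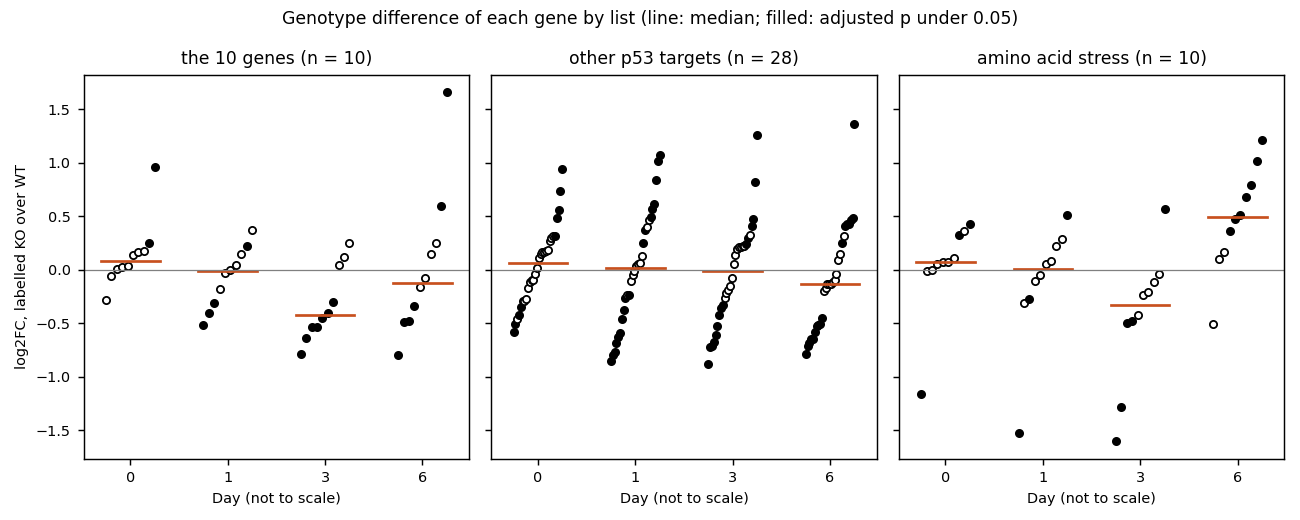
Log2 fold change between KO-labelled libraries and WT (y axis) of each gene of 3 lists by day (x axis, not to scale), with lines at list medians and filled points where the adjusted p is under 0.05. The medians of the 10 genes (-0.42) and of the stress list (-0.33) lie below 0 on day 3, while that of 28 other p53 targets is -0.01.

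Correlations across the 23 libraries, which share 1 time course and 2 genotypes, are given as descriptions. Trp53inp1 was most like Btg2 (r = 0.90 of log2 CPM), Mdm2 most like Gdf15 (0.78), Sesn2 most like Phlda3 (0.74) and Ccng1 most like Zmat3 (0.69). Trp53 correlated best with Zmat3 among these genes (0.58) and least with Eda2r (-0.87), and Mdm2 least with Btg2 (-0.87). Of 10235 genes compared, those closest to Trp53 were Lrwd1, Actr1a and Gatad2a (each 0.98), and those closest to Mdm2 were Papd5 (0.96), Xpot (0.94) and Slc25a32 (0.92).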

How the data were processed

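The authors deposited 1 table of estimated counts per gene symbol, as whole numbers, and 1 table of TPM, each covering 23 libraries. Bowtie2, RSEM and the genome build mm10 are named in the submitters' processing notes. Versions, settings, strand use and the gene annotation are not given in the sources used here. Low counts were removed by filterByExpr of edgeR (at least 10 in a group's libraries, 15 in all), the rest scaled by TMM and fitted with the quasi-likelihood test of edgeR 4.0.16 in R 4.3.3, in 1 group-means model over all libraries. Each of 13 contrasts was adjusted by Benjamini-Hochberg over 14187 genes, with a threshold of 0.05. CPM values use the TMM-scaled library size. Standard errors were derived from the F statistic. Levels compared between genes are the authors' TPM. The procedure was tested on simulated counts. Alternatives were RLE scaling, library size alone, DESeq2 1.42.0, no filter on low counts, a stricter one (mean count 50 or more), limma 3.58.1 on log2(TPM + 1) and log2(TPM + 0.1), only the groups compared, the replicate number as a block, and omission of each library. Named genes were the 10 genes and, from each list and day, the 2 highest and 2 lowest passing genes with a group mean of at least 5 CPM; Runx1 is given as the targeted gene, and Trp73, Cdkn2a, Perp, Cd68 and the other markers are named for their counts. The genes and lists were chosen with earlier results of these data known, and the alternatives for counts of listed genes, Trp63, Trib3, Gadd45a, Asns, Psat1 and Vldlr were added after seeing the data. Promoter windows and gene positions come from RefSeq on GRCm38.p6.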

Additional observations from a re-analysis of the deposited data

Results flagged for a closer look

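The change since day 0 differed between genotypes for 6 results, each by the interaction test of edgeR with Benjamini-Hochberg adjustment, as the log2 change in the libraries labelled KO minus that in WT. On day 3, Gdf15 fell further in the libraries labelled KO, with a difference of -1.50 (SE 0.285, adjusted p = 0.000927). Sesn2 fell in them, while its WT value of 0.28 did not pass with edgeR (adjusted p = 0.13) but did on log2(TPM + 1) (0.42, adjusted p = 0.0285) and with only the groups compared (adjusted p = 0.00779), and the interaction was -0.81 (SE 0.210, adjusted p = 0.0126). That of Zmat3 was -0.77 (SE 0.126, adjusted p = 0.000202). On day 6, Zmat3 differed by -0.93 (SE 0.127, adjusted p = 1.37e-05), Ccng1 by -0.42 (SE 0.127, adjusted p = 0.0312) and Eda2r by 1.49 (SE 0.220, adjusted p = 3.88e-05). The Zmat3, Gdf15 and Eda2r results held in all 20 alternatives run for each. Sesn2 was lost without replicate 1 of WT day 0 (-0.76, adjusted p = 0.0663), and Ccng1 in 9 of 20 alternatives (adjusted p = 0.0511 to 0.126 in those).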

How the results depend on the processing

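Of 2060 alternative values for 130 log2 fold changes of the 10 genes, 1872 kept their direction and their side of the threshold, 76 lost a call, 34 gained one and 78 changed sign, none of a called result. The number of genes called between genotypes on day 0 went from 2 to 1 with library size only, without the filter and on log2(TPM + 1) or log2(TPM + 0.1), and to between 1 and 2 on leaving out a library. On day 1 it went from 4 to 2 when only the groups compared were fitted. For the interaction it went from 0 to 1 with DESeq2 on day 1 (0 to 1 on leaving out a library), and from 3 to 6 with DESeq2, 6 with only the groups compared and 5 under a mean count filter of 50 on day 3. Leaving out a library gave 4 to 5, 5 to 7 and 4 to 6 genes on days 1, 3 and 6 between genotypes. With the labels' replicate numbers as a block, 1 of 130 results changed, the day 6 interaction of Ccng1 (-0.40, adjusted p = 0.0511). Deviations from the group mean had a mean r of 0.049, 0.003, 0.017 and -0.094 between libraries of equal number on days 0, 1, 3 and 6. With 2 pairs on day 0 and 3 on each other day, these cannot show whether equal numbers share more than a number. Blocked Trib3 on day 0 was 0.030.

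Sign changes arose in values near 0. With library size only, log2(TPM + 1) and log2(TPM + 0.1) in turn, the genotype difference was -0.049, -0.051 and -0.051 for Trp53 on day 0, -0.0026, -0.027 and -0.027 for Trp53 on day 1, -0.032, -0.033 and -0.036 for Sesn2 on day 0, -0.023, -0.024 and -0.024 for Phlda3 on day 0, and -0.0080, -0.098 and -0.100 for Mdm2 on day 3; the change of Phlda3 labelled KO on day 1 was 0.045, 0.110 and 0.110. Eda2r on day 3 was -0.056 and -0.061 on the TPM scales. A mean count filter of 50 gave -0.00031 for Mdm2 on day 3 and -0.0027 for Trp53 on day 1. The day 1 interaction of Trp53 was -0.0014 with RLE scaling and DESeq2, -0.011 under a mean count filter of 50 and -0.023 with only the groups compared. Zmat3 in WT with RLE scaling, DESeq2, a mean count filter of 50, library size only, log2(TPM + 1) and log2(TPM + 0.1) changed by 0.023, 0.023, 0.039, 0.062, 0.112 and 0.123 on day 1 and by 0.00085, 0.00097, 0.013, 0.041, 0.136 and 0.149 on day 3, and on the TPM scales by 0.065 and 0.071 on day 6.

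Leaving out 1 library, the genotype difference ranged from -0.041 to 0.061 (Trp53) and -0.068 to 0.083 (Sesn2) on day 0, from -0.10 to 0.26 (Trp53), -0.090 to 0.071 (Ccng1), -0.080 to 0.28 (Trp53inp1) and -0.21 to 0.084 (Eda2r) on day 1, and from -0.020 to 0.21 (Eda2r) on day 3. Trib3 ranged from -0.054 to 0.028 on day 0 and Gadd45a from -0.15 to 0.018 on day 3. Interactions on day 1 ranged from -0.12 to 0.24 (Trp53), -0.078 to 0.032 (Mdm2), -0.032 to 0.13 (Ccng1), -0.26 to 0.13 (Trp53inp1) and -0.31 to 0.066 (Btg2), those of Btg2 on days 3 and 6 from -0.33 to 0.066 and -0.26 to 0.13, and that of Eda2r on day 3 from -0.19 to 0.10. Zmat3 in WT ranged from -0.064 to 0.041 on day 1 and -0.067 to 0.019 on day 3, and Phlda3 labelled KO from -0.13 to 0.097 on day 1. The cause of these changes was not tested. On log2(TPM + 1), the median shift of a gene's log2 fold change from its reported value was -0.15 on day 3 and -0.12 on day 6 between genotypes, and 0.13 to 0.17 over time in WT, so small changes of these genes depend on the scale.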
